A study of Mus musculus with 23 samples.

Results

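Myl9, Myh9 and Tpm2, genes for 2 parts of nonmuscle myosin II and for a tropomyosin, were followed across mouse embryonic stem (ES) cells that received an SRF fusion plasmid or a control plasmid. Every probe set annotated to Myl9, Myh9, Tpm1 or Tpm2 was taken. That gave 5 probe sets for 3 genes, among 12436 probe sets for 8131 genes, and all 5 passed the filter on low values, which kept 9643. Myl9 had 1 probe set (96939_at), Myh9 had 2 (100915_at and 102108_f_at) and Tpm2 had 2 (100605_at and 94581_f_at). Tpm1 was not analysed here. The suffix f marks probe sets whose probes can also bind transcripts of related genes, so 102108_f_at and 94581_f_at are less certain readouts of their gene.

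Total RNA was measured 72 hours after transfection, in 23 arrays that form 12 groups. The lines were E81 and E100, both labelled -/-, E99, labelled +/- or -/+, and E14wt, the wild type of the E14 mouse ES line. Each received a plasmid for SRF-VP16, a plasmid for SRFdM-VP16, which the labels call a control, or the vector. VP16 is the transcription-activating domain of a herpesvirus protein. Which gene carries the - alleles, what dM stands for and whether a line is 1 clone are not stated in the labels. They also do not say which share of the cells took up a plasmid. Each group had 2 arrays, except E100 with vector, which had 1, and p-values measure the spread between such duplicates, which may be technical.

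Nonmuscle myosin II is the motor that pulls on actin filaments in cell division, adhesion and shape change. It is built from heavy chains, such as the one encoded by Myh9, and from essential and regulatory light chains, Myl9 encoding one of the regulatory ones. Phosphorylation of the regulatory light chain, by kinases that include Mylk and the Rock kinases, switches the motor on. Tropomyosins are coiled-coil proteins that lie along actin filaments and set which myosins and other proteins can bind there. SRF, serum response factor, binds a DNA element called the CArG box in the promoters of many genes of the actin cytoskeleton.

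The promoter windows of the 2 genes whose arrays separated most are shown because the plasmid encodes a DNA-binding factor. They run from 250 bases before to 50 bases after the annotated start, from RefSeq on GRCm38.p6, and all 4 named genes matched an entry. The Myl9 window is chr2:156775214-156775513 on the plus strand. Capitals mark a CArG box, which starts at position -161 counted from 0 at the annotated start, and a CArG-like element with 1 G or C among its 6 central bases, which starts at -99.
Myl9: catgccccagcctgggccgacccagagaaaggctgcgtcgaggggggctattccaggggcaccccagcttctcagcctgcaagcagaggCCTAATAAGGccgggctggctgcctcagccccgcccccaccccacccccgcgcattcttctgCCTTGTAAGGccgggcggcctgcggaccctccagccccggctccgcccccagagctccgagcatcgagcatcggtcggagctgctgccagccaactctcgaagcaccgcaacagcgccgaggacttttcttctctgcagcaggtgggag
The Myh9 window is chr15:77842126-77842425 on the minus strand, and nothing in it is in capitals because neither element was found on either strand.
Myh9: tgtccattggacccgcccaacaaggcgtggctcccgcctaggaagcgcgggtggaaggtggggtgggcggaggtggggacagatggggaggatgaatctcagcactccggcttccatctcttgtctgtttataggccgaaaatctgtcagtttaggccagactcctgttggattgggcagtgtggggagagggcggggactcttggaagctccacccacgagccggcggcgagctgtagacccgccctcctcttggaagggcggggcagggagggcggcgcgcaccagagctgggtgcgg
Over 32851 promoter windows, 1.63% held a CArG box and 8.5% a CArG-like element. The windows of Tpm1 and Tpm2 held neither. GGGCGG, searched on both strands, occurred 3 times in Myl9, 6 times in Myh9 and 3 times in Tpm2, in a background of 35.7% of windows with at least 1. TATAAA, also searched on both strands, occurred once in Myh9 and in 13.6% of all windows. A match is a run of letters and not a shown binding site.

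Array medians were 53.5 to 207 intensity units, and 23.5% to 43.6% of an array's values were at or below 0. The first E81 SRFdM-VP16 array stood apart, with the lowest median and the highest share at or below 0, and the changes in the -/- lines are also given without it. The 2 E14wt control arrays numbered 2, SRFdM-VP16 and vector, stood apart from their duplicates in some actin-cytoskeleton transcripts. For example, Tpm4 was at 7385 and 9207 in them, against 2565 and 2442 in the arrays numbered 1. Not all such transcripts differed so: Actg1, an actin gene, was at 28474 and 30085, against 29243 and 25721. The E14wt SRF-VP16 arrays also differed, with the array numbered 1 the higher. Tpm4 was at 8709 and 3911 in them, and the summed intensity of 6 smooth muscle markers at 28391 and 9076. The summed intensity of 10 ES cell markers was 36427 to 61780 in the -/- SRF-VP16 arrays and 52106 to 103059 in the -/- SRFdM-VP16 arrays. At least 8 of the 10 lay above the floor in each of the 23 arrays. The floor is 58 intensity units, the 40th percentile of all values, to which lower values were raised before taking log2.

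Myl9 and Myh9 were higher with SRF-VP16 than with SRFdM-VP16 in the -/- lines, and Tpm2 did not pass the test on either probe set. This comparison asks what the SRF fusion changes where the labels give no + allele. Of the 5 probe sets, 3 rose and 0 fell, against 2.82% of all probe sets tested that passed in either direction and 2.48% that rose. The median log2 change was 1.82 over the 5 probe sets and 0.04 over all of them.

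Myl9 intensity was 356 and 748 in E81 and 2047 and 539 in E100 with SRF-VP16. With SRFdM-VP16 it was -222 and -34 in E81 and 3 and 23 in E100. Every -/- SRF-VP16 array was therefore well over the floor and every -/- SRFdM-VP16 array below it. The means were 923 ± 767 with SRF-VP16 and -57.5 ± 112 with SRFdM-VP16 (SD, n = 4 each). The change was at least 12.7-fold against the floor, or 3.67 ± 0.61 on the log2 scale (SE, limma adjusted p = 0.0046, 95% interval 2.36 to 4.97). Without the first E81 SRFdM-VP16 array it was also 3.67 (adjusted p = 0.021). The size depends on the floor: with the floor at the 60th percentile, 299, it was 1.30 (adjusted p = 0.065), and the call was also lost when only the arrays compared entered the fit (adjusted p = 0.067).

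Myh9 was already well above the floor in the control arrays. On 100915_at its intensity was 2918 and 4026 in E81 and 4778 and 5070 in E100 with SRF-VP16. With SRFdM-VP16 it was 983 and 737 in E81 and 1320 and 973 in E100. The 2 groups did not overlap, and the lowest SRF-VP16 array was clearly above the highest SRFdM-VP16 array. The means were 4198 ± 960 with SRF-VP16 and 1003 ± 240 with SRFdM-VP16 (SD, n = 4 each), a 4.18-fold change (log2 2.06 ± 0.30 SE, limma adjusted p = 0.002, 95% interval 1.42 to 2.71).

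The second Myh9 probe set, 102108_f_at, gave 2369 and 3619 in E81 and 4208 and 3663 in E100 with SRF-VP16. With SRFdM-VP16 it gave 737 and 845 in E81 and 1003 and 1361 in E100. Again no array of either group reached into the other. Such a separation of the 4 higher SRF-VP16 arrays from the 4 SRFdM-VP16 arrays was seen for 4.64% of all probe sets. The change was 3.53-fold (log2 1.82 ± 0.38 SE, limma adjusted p = 0.018). This call was lost without the first E81 SRFdM-VP16 array (log2 1.77, adjusted p = 0.065), whereas 100915_at stayed past the threshold (2.17, adjusted p = 0.0069).

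**Figure D1:**
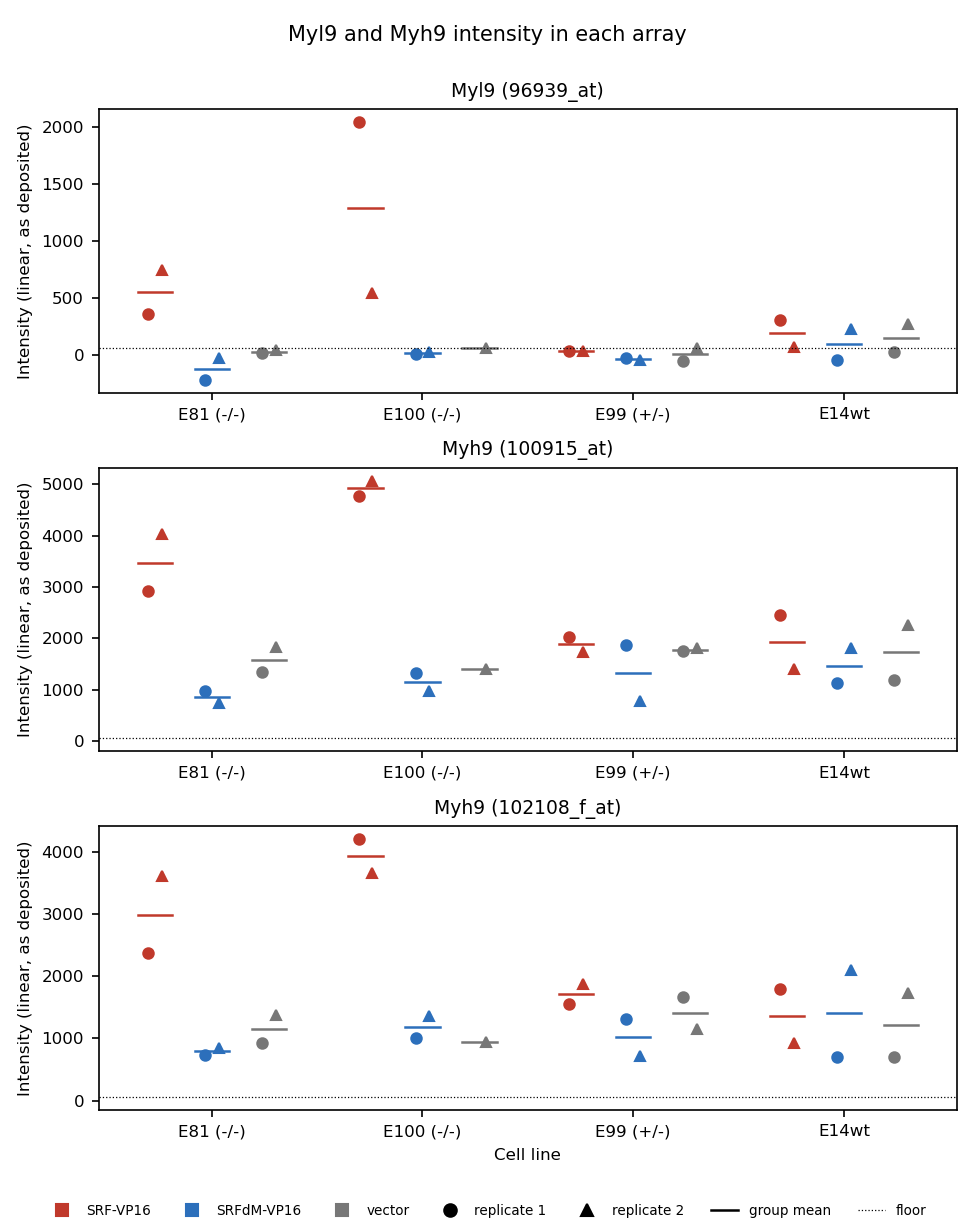
Intensity of Myl9 and of both Myh9 probe sets (linear scale, as deposited) in each of the 23 arrays, by line, with SRF-VP16 in red, SRFdM-VP16 in blue and vector in grey; circles are replicate 1, triangles replicate 2, bars group means, and the dotted line the floor of 58. The 4 SRF-VP16 arrays of E81 and E100 lie above all other arrays in each panel, at 356 to 2047 for Myl9 and 2918 to 5070 for Myh9 on 100915_at.

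The separation held beyond the matched control. For Myl9 and both Myh9 probe sets, the 4 -/- SRF-VP16 arrays lay above all 19 other arrays of the study, which was so for 1.53% of all probe sets and for neither Tpm2 probe set. Against vector, Myl9 rose in the -/- lines by 3.65 ± 0.68 on the log2 scale (limma adjusted p = 0.012). With vector its intensity was 11 and 38 in E81 and 59 in the single E100 array, which is just above the floor. Myh9 on 100915_at was at 1341 and 1833 in E81 and 1399 in E100 with vector, and on 102108_f_at at 929 and 1374 in E81 and 939 in E100. All of these lay below the lowest SRF-VP16 array of the same probe set in these lines. Myh9 rose against vector by 1.47 ± 0.34 on 100915_at (adjusted p = 0.035) and by 1.72 ± 0.43 on 102108_f_at (adjusted p = 0.047). Of all probe sets, 2.97% passed that comparison. The vector and SRFdM-VP16 comparisons use the same SRF-VP16 arrays.

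The direction was the same in each -/- line for these 3 probe sets. All SRFdM-VP16 arrays of both lines were below the floor for Myl9, so its log2 change was at least 3.15 in E81 (limma adjusted p = 0.11) and at least 4.18 in E100 (adjusted p = 0.029). Myh9 on 100915_at changed by 2.01 ± 0.43 in E81 (adjusted p = 0.044) and by 2.12 ± 0.43 in E100 (adjusted p = 0.026). On 102108_f_at the change was 1.89 in E81 and 1.75 in E100, and neither passed alone. Without the first E81 SRFdM-VP16 array, which leaves 1 such array, no probe set of these genes passed in E81, Myh9 on 100915_at being at 2.22 (adjusted p = 0.14). Passing in E81 were 1.01% of all probe sets and in E100 1.18%. The test of E81 minus E100 called 0 of the 5 probe sets, with 0.145% of all probe sets called. Its difference was -0.11 ± 0.60 for Myh9 on 100915_at, beside a median of 0.52 over all probe sets, and without the first E81 SRFdM-VP16 array it was 0.10 ± 0.68. These errors are wide, so they do not show that the lines respond alike. Against vector in E81, Myl9 was at 3.15 (limma adjusted p = 0.12) and Myh9 at 1.13 on 100915_at (adjusted p = 0.31). On 102108_f_at it was at 1.37 (adjusted p = 0.34), so none of the 3 passed. Against the single E100 vector array the changes were 4.15 for Myl9 and 1.81 and 2.06 for Myh9.

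Tpm2 showed no change that passed the test in the -/- lines, and its probe sets did not track each other. On 100605_at its intensity was -105 and 569 in E81 and 243 and 129 in E100 with SRF-VP16. With SRFdM-VP16 it was 533 and 187 in E81 and 426 and 743 in E100, so the groups overlapped. The log2 change was -1.23 ± 0.82 (limma adjusted p = 0.59, 95% interval -3.00 to 0.53), and -0.85 ± 0.93 without the first E81 SRFdM-VP16 array. On 94581_f_at the intensity was -68 and -120 in E81 and 697 and 725 in E100 with SRF-VP16, and -93 and -214 in E81 and 769 and 319 in E100 with SRFdM-VP16. All 4 of these E81 arrays were below the floor and all 4 of these E100 arrays above it. With vector it was the other way round, at 538 and 846 in E81 and -33 in E100. The log2 change was 0.26 ± 0.77 (adjusted p = 0.96, 95% interval -1.39 to 1.92).

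**Figure D2:**
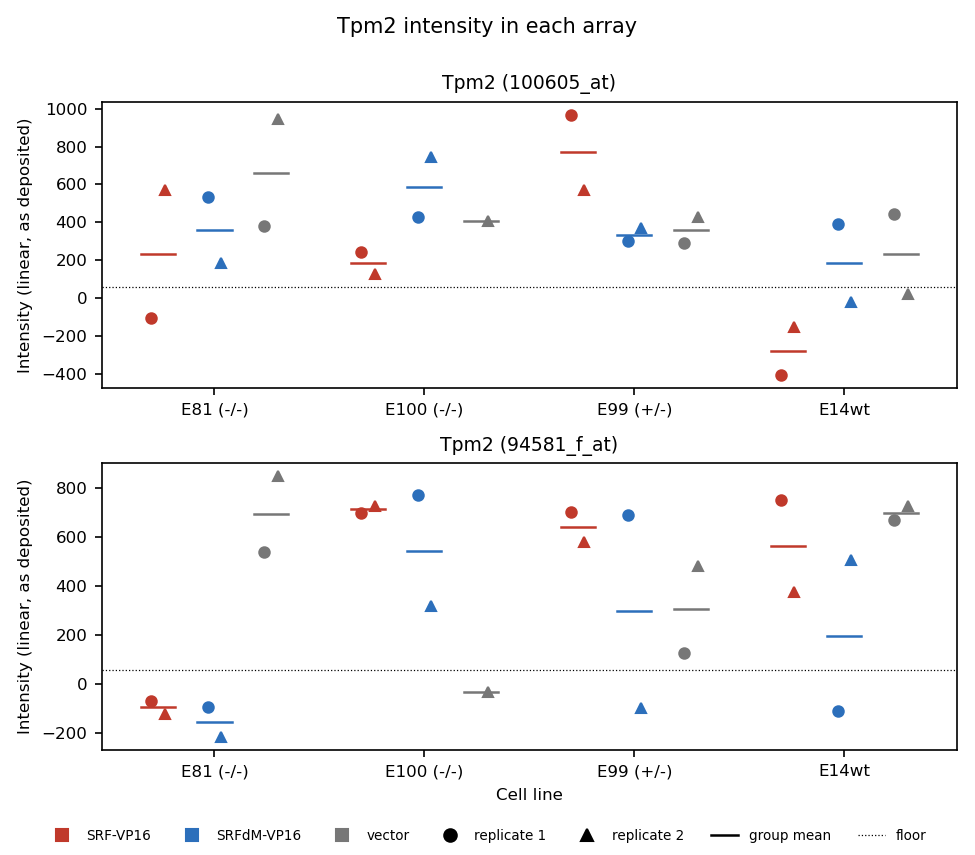
Intensity of both Tpm2 probe sets (linear scale, as deposited) in each array, by line, with SRF-VP16 in red, SRFdM-VP16 in blue and vector in grey; circles are replicate 1, triangles replicate 2, bars group means, and the dotted line the floor of 58. SRF-VP16 and SRFdM-VP16 arrays overlap in the -/- lines, and both probe sets have arrays below 0.

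In E14wt the same comparison called 0 of the 5 probe sets, with 0.0207% of all probe sets called and 346 at an unadjusted p under 0.05. Myl9 was at 308 and 66 with SRF-VP16, against -45 and 226 with SRFdM-VP16 and 22 and 269 with vector. Each plasmid thus had 1 higher and 1 lower array, and the log2 change was 0.32 ± 0.86. Myh9 on 100915_at was at 2466 and 1407 with SRF-VP16, against 1138 and 1808 with SRFdM-VP16 and 1200 and 2257 with vector. Its log2 change was 0.38 ± 0.43 (95% interval -0.54 to 1.29). On 102108_f_at it was at 1799 and 931 with SRF-VP16, against 705 and 2107 with SRFdM-VP16, and its log2 change was 0.09 ± 0.54 (95% interval -1.07 to 1.25). Tpm2 on 100605_at was at -405 and -153 with SRF-VP16, against 391 and -22 with SRFdM-VP16 and 446 and 21 with vector. On 94581_f_at it was at 750 and 374 with SRF-VP16, against -109 and 504 with SRFdM-VP16 and 669 and 726 with vector. The probe sets thus gave opposite signs, with log2 changes of -1.38 ± 1.16 and 1.63 ± 1.09 that did not pass. The E14wt control arrays numbered 2 and the SRF-VP16 array numbered 1 were the higher ones for Myl9 and for both Myh9 probe sets. Leaving out only those 2 control arrays set both SRF-VP16 arrays against the lower control arrays. The E14wt changes were then 1.30 for Myl9, 0.71 for Myh9 on 100915_at and 0.88 on 102108_f_at. With single arrays left out instead, the lowest changes were -0.79, -0.03 and -0.70. That also leaves higher and lower arrays unequal between the plasmids, so each sign depends on the arrays dropped.

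In E99, 0 of the 5 probe sets passed, with 0.0415% of all probe sets called and 432 at an unadjusted p under 0.05. Myl9 was below the floor in all 4 arrays compared, at 28 and 35 with SRF-VP16 and -31 and -52 with SRFdM-VP16, so no fold is given. Myh9 on 100915_at was at 2030 and 1742 with SRF-VP16, against 1879 and 794 with SRFdM-VP16 and 1750 and 1806 with vector. The log2 change against SRFdM-VP16 was 0.62 ± 0.43, and on 102108_f_at it was 0.81 ± 0.54. That second probe set was at 1563 and 1872 with SRF-VP16, against 1319 and 723 with SRFdM-VP16. On 100915_at the SRF-VP16 and SRFdM-VP16 arrays overlapped. With vector, 102108_f_at was at 1666 and 1148, which overlaps its SRF-VP16 arrays. Neither change passed. Tpm2 was at 968 and 569 with SRF-VP16 and 300 and 372 with SRFdM-VP16 on 100605_at, a log2 change of 1.15 ± 1.16. On 94581_f_at it was at 700 and 578 with SRF-VP16 and 687 and -95 with SRFdM-VP16, a log2 change of 1.67 ± 1.09.

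**Figure D3:**
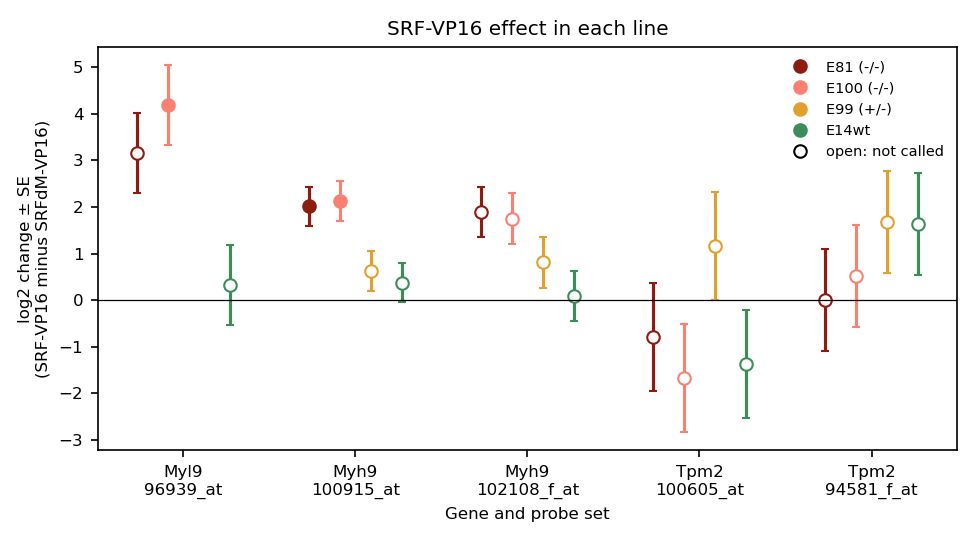
Log2 change in intensity, SRF-VP16 minus SRFdM-VP16, with its SE from the limma fit, for the 5 probe sets in each line; filled points passed the adjusted threshold, and Myl9 in E99 is left out because all 4 arrays were below the floor. Myl9, a lower bound in both -/- lines, lies at 3.15 and 4.18 in E81 and E100 and at 0.32 in E14wt, and Myh9 on 100915_at at 2.01 and 2.12 and at 0.38.

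The difference between the -/- and the E14wt effects was tested directly, and 0 of the 5 probe sets passed over all probe sets, with 0.083% called. For Myl9 the -/- effect exceeded the E14wt effect by 3.35 ± 1.05 on the log2 scale (limma adjusted p = 0.58), a size that rests on the floor. For Myh9 the excess was 1.69 ± 0.52 on 100915_at (adjusted p = 0.56) and 1.73 ± 0.66 on 102108_f_at (adjusted p = 0.79). The 95% intervals, not adjusted for the number of probe sets, were 1.09 to 5.61 for Myl9, and 0.56 to 2.81 and 0.31 to 3.16 for Myh9. Of all 9643 probe sets, 513 had an unadjusted limma p under 0.05 in this comparison. After adjustment, an effect that is larger in the -/- lines than in E14wt is not established for these genes. Over all 4 lines, Myl9 rose by 1.91 ± 0.43 (adjusted p = 0.037) and Myh9 by 1.28 ± 0.21 on 100915_at (adjusted p = 0.0074) and 1.13 ± 0.27 on 102108_f_at (adjusted p = 0.049). That was 3 of 5 probe sets, beside 1.96% of all. Without the first E81 SRFdM-VP16 array only 100915_at passed, with 1.33 (adjusted p = 0.014), while Myl9 was at 1.91 (adjusted p = 0.077). None of the 3 passed with vector as control (adjusted p = 0.059, 0.1 and 0.11), and with a replicate block within each line only 100915_at did, with Myl9 at adjusted p = 0.083 and 102108_f_at at 0.075. That block used the replicate numbers as labelled, which did not run alike in the groups of E14wt and of E99.

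Without SRF-VP16, no probe set of these genes differed between lines past the threshold. The -/- control-plasmid arrays minus those of E14wt gave log2 differences of -1.04 ± 0.55 for Myl9, -0.35 ± 0.27 and -0.22 ± 0.34 for Myh9, 1.55 ± 0.74 for Tpm2 on 100605_at and -0.91 ± 0.69 on 94581_f_at. None of the 5 passed, with 0.083% of all probe sets called. Without the E14wt control arrays numbered 2, Myl9 was at 0.01 and Myh9 at 0.05 on 100915_at and 0.49 on 102108_f_at, so the sign of each rests on those arrays. E99 minus E14wt gave -1.03 for Myl9 and -0.06 for Myh9 on 100915_at, with 0 of 5 called and 0.0726% of all.

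With SRF-VP16, the -/- lines lay above E14wt with control plasmids for Myl9 (log2 2.62 ± 0.61, limma adjusted p = 0.046) and Myh9 on 100915_at (1.42 ± 0.30, adjusted p = 0.03). On 102108_f_at the difference was 1.54 ± 0.38 (adjusted p = 0.063). Of the 5, 2 passed, beside 1.76% of all probe sets. With a replicate block within each line neither passed, with Myl9 at 3.10 (adjusted p = 0.16) and Myh9 on 100915_at at 1.55 (adjusted p = 0.14). Between lines, however, that block sets fitted levels of the arrays numbered 1 against each other. It therefore estimates another quantity and does not test the differences above. Without a block and without the E14wt control arrays numbered 2, the differences for Myl9 and the Myh9 probe sets were 3.67, 1.81 and 2.26, and all 3 passed. Without the first E81 SRFdM-VP16 array, which enters through the shared spread, Myl9 had adjusted p = 0.065. SRFdM-VP16 minus vector over all lines called 0 of the 5 (0.799% of all). Myh9 on 100915_at was at -0.48 ± 0.23 there. The median over all probe sets was -0.20, and relative to that median this Myh9 probe set was at -0.28.

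Across the 12 groups, Myl9 was highest in E100 and E81 with SRF-VP16, whose arrays overlap, followed by the 3 E14wt groups, which overlap each other. The remaining groups held Myl9 at or near the floor. Myh9 on 100915_at was highest in E100 and E81 with SRF-VP16, whose order with 2 arrays each was not tested. The next groups, E14wt and E99 with SRF-VP16, overlapped each other and the vector groups of E14wt, E99 and E81, and lay above the single E100 vector array.

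The 2 Myh9 probe sets followed each other over the 23 arrays, with Pearson r = 0.913 of log2 values, a description of arrays that share lines and plasmids. Myl9 correlated with them at 0.838 and 0.849, and the 2 Tpm2 probe sets with each other at -0.06. By the same measure the probe sets most like Myl9 were those of Tax1bp3 (0.955), Krt20 (0.925), Kctd10 (0.919), Prss23 (0.918) and Csf1 (0.914). Myl9 itself was below the floor in 13 of the 23 arrays, Tax1bp3 in 14, Prss23 in 13 and Krt20 in 9, so these values rest partly on arrays set to the floor. For Myh9 on 100915_at they were its own other probe set, Edn1 (0.892), Mdfic (0.886), Wwtr1 (0.882) and Chmp4b (0.877). On 102108_f_at, Cstb (0.926) and Mdfic (0.921) led. The best values for Tpm2 were lower on 100605_at, led by H2-M10.1 at 0.727, and its other probe set was led by Lta at 0.905.

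Some other genes of the myosin and tropomyosin machinery also passed in the -/- lines. Of 71 listed genes outside the actins, 42 had a tested probe set, of which 3 rose and 0 fell, beside 2.82% of all probe sets. Their median log2 change was 0.37, against 0.04 over all probe sets. The 3 were Tagln, which encodes transgelin, an actin-binding protein, Tpm4, a tropomyosin gene, and Myo1d, which encodes a membrane-linked class I myosin.

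Tpm4 intensity was 6621 and 8722 in E81 and 10413 and 5013 in E100 with SRF-VP16. With SRFdM-VP16 it was 281 and 1660 in E81 and 935 and 878 in E100. The groups did not overlap, and the change was 9.42-fold (log2 3.24 ± 0.60, limma adjusted p = 0.0094). Without the first E81 SRFdM-VP16 array it was 2.60 ± 0.57 (adjusted p = 0.038), a comparison that 2.22% of all probe sets passed. In E14wt the Tpm4 arrays overlapped between plasmids, at 8709 and 3911 with SRF-VP16 and 2565 and 7385 with SRFdM-VP16. Tpm3, another tropomyosin gene, did not pass in the -/- lines (log2 -0.42 ± 0.49, adjusted p = 0.8). Its intensity was 814 to 3989 with SRF-VP16 and 1663 to 4052 with SRFdM-VP16.

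Of the myosin II subunits, 0 of 4 tested genes passed. Myl12b, which encodes another regulatory light chain of nonmuscle myosin II, had 9606, 10603, 9762 and 6479 in the -/- SRF-VP16 arrays and 8855, 9123, 9391 and 10005 in the -/- SRFdM-VP16 arrays. Its log2 change was -0.06 ± 0.14 (limma adjusted p = 0.94), a narrower error than that of any of the 5 probe sets. Myh10, a heavy chain gene related to Myh9, was near the floor, with a mean of 65.4 over all arrays, and changed by -0.39 ± 0.25.

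**Figure D4:**
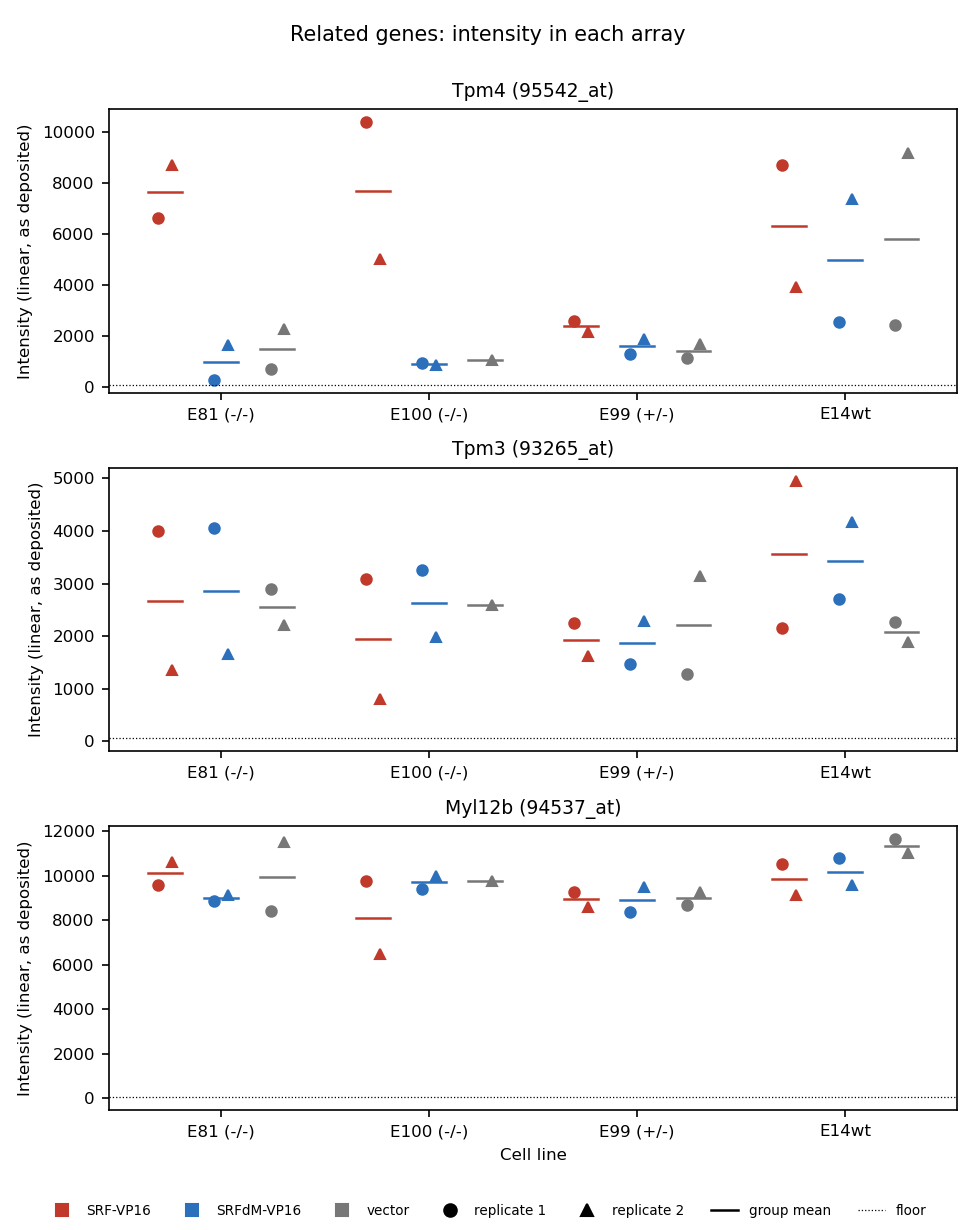
Intensity of Tpm4, Tpm3 and Myl12b (linear scale, as deposited) in each array, by line, with SRF-VP16 in red, SRFdM-VP16 in blue and vector in grey; circles are replicate 1, triangles replicate 2, bars group means, and the dotted line the floor of 58. Tpm4 separates SRF-VP16 from control arrays in E81 and E100, at 5013 to 10413 against at most 1660 with SRFdM-VP16, while Tpm3 and Myl12b overlap.

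Of the regulators of myosin II, kinases, phosphatase subunits and small GTPases among them, 0 of 15 tested genes passed, with a median log2 change of 0.44. The values nearest to the threshold were Limk2, a kinase of the actin-severing protein cofilin, at 1.28 ± 0.47 (limma adjusted p = 0.22), and Rhoc, a small GTPase, at 0.90 ± 0.33 (adjusted p = 0.23). Mylk, the myosin light chain kinase gene, was at -0.40 ± 0.62 and Rock1 at 0.51 ± 0.24. Of 8 unconventional myosins only Myo1d passed (1.43 ± 0.34, adjusted p = 0.035). Its call was lost without the first E81 SRFdM-VP16 array (1.49, adjusted p = 0.069) and against vector (1.15 ± 0.38, adjusted p = 0.13). Against vector 1 of these genes fell, Myo1f, by 2.35 on the log2 scale (adjusted p = 0.042), and its mean over all arrays was -2.61 intensity units. Against SRFdM-VP16, Myo1c was at 1.30 ± 0.41 (adjusted p = 0.14). None of 7 tested muscle myosin genes passed.

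Of 8 tested tropomyosin relatives and thin-filament partners, 2 passed, Tagln and Tpm4. Cnn1, which encodes calponin, was at 2.81 ± 0.82 (limma adjusted p = 0.1) and passed against vector (4.01 ± 0.92, adjusted p = 0.035). Tagln changed by 7.61 ± 1.00 (adjusted p = 0.00093), at a mean of 27957 with SRF-VP16 and 150 with SRFdM-VP16, and passed without the first E81 SRFdM-VP16 array (adjusted p = 0.0067). All 6 actin genes were tested and 5 rose, Actg1, which encodes cytoplasmic gamma-actin, among them by 1.91 ± 0.14 (adjusted p = 7.2e-06). In E14wt and in E99, 0 of the 42 genes passed, where 0.0207% and 0.0415% of all probe sets did.

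**Figure D5:**
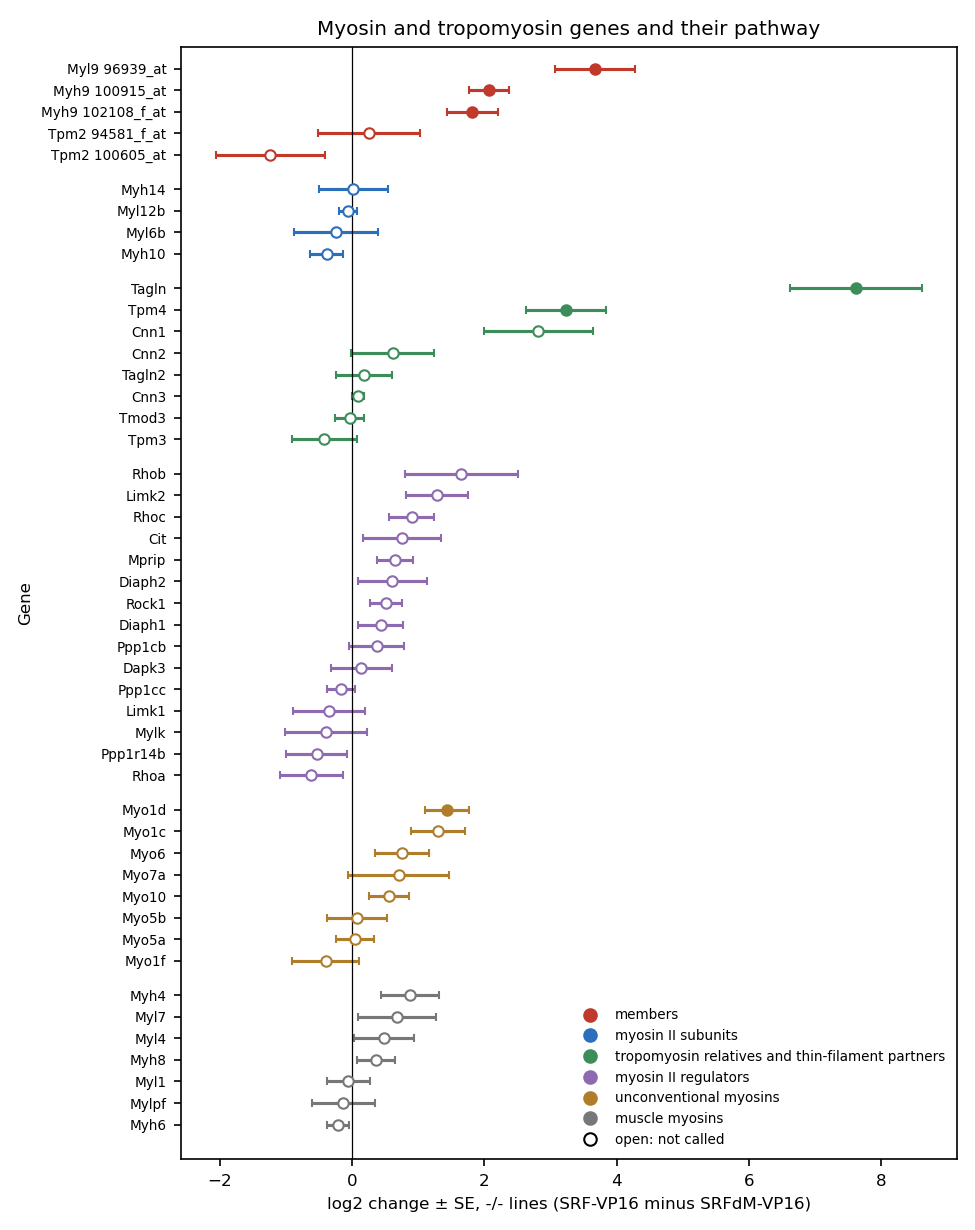
Log2 change in intensity in the -/- lines, SRF-VP16 minus SRFdM-VP16, with its SE from the limma fit, for the 5 probe sets (red) and for 42 genes of the myosin and tropomyosin machinery, 1 probe set per gene; filled points passed the adjusted threshold. Myl9, both Myh9 probe sets, Tagln, Tpm4 and Myo1d are filled, at 1.43 to 7.61.

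Markers of other cell types moved with the plasmid in part. The summed intensity of 6 smooth muscle markers was 36813 to 51337 in the -/- SRF-VP16 arrays and 855 to 1039 in the -/- SRFdM-VP16 arrays, and that list includes Tagln and Cnn1. Acta2, which encodes smooth muscle actin, was at 11313 ± 1731 with SRF-VP16 and -201 ± 150 with SRFdM-VP16 (SD, n = 4 each). Of the 6 markers, 4 were above the floor in each -/- SRF-VP16 array and 3 in each -/- SRFdM-VP16 array, and Myh11 and Smtn were below it in all 8. The sums were 6501 to 13050 against 2019 to 7018 for 6 primitive endoderm markers, which overlap. For 5 trophoblast markers they were 711 to 2976 against 0 to 365. For 9 fibroblast markers they were 739 to 1069 against 133 to 938, which overlap. The sums of 5 striated muscle markers, 621 to 1073 against 408 to 778, overlap as well. Their part in the Myl9 and Myh9 result was not tested. In RNA of whole cultures, a change in the share of a cell type and a change of RNA per cell cannot be told apart.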

How the data were processed

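Total RNA of 23 ES cell samples was measured on Affymetrix mouse arrays. The authors deposited 1 linear intensity per probe set and array, some below 0. The software, background step and scaling used were not given in the sources used here. Values were used as deposited, raised to a floor of 58 (the 40th percentile) and put on the log2 scale. Of 12502 probe sets, 66 controls were left out, and those above their array's 40th percentile in at least 2 arrays were kept (9643). limma 3.58.1 in R 4.3.3 fitted 1 mean per group, with an intensity trend, and 11 residual degrees of freedom. Tests were two-sided, with Benjamini-Hochberg adjustment over all probe sets, and a call needed an adjusted p under 0.05. Gene names came from the platform annotation. Groups followed the sample titles. The genes, lists and tests were chosen with earlier results of these data known. Other genes were named if called, or as up to 4 per list by smallest adjusted p; Tpm3 and Mylk were chosen after their values were seen. Likeness was Pearson's r over 23 arrays, naming at most the top 5. The fitting steps were tested on simulated data with independent noise, no floor and changes added only to probe sets well above it. Those data do not cover Myl9, which was below the floor in many arrays. Alternatives covered normalization, floor, filter, replicate block and left-out arrays. Leaving out the first E81 SRFdM-VP16 array for E81 alone and for Tpm4, Tagln and Myo1d was added after seeing the data. The labels do not say that replicate numbers pair samples. By the correlation of deviations they did in the SRF-VP16 and SRFdM-VP16 groups of the -/- lines (0.14 to 0.30), but the numbers did not run alike over all lines. There, E99 vector, E99 SRFdM-VP16 and E14wt SRF-VP16 correlated positively with each other and negatively with all other groups that had duplicate arrays. With the numbers reversed in these groups, all correlations would be positive. The replicate blocks used the numbers as labelled, and no block with reversed numbers was run. The number of arrays limits the precision.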

Additional observations from a re-analysis of the deposited data

Results flagged for a closer look

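Of 39 sets of arrays examined for a value far from the others, 5 held one. Sets share arrays and some pool lines with different levels, so the count was not set against a chance rate. Myl9 was at -222 in the first E81 SRFdM-VP16 array, with the nearest -/- control at -34. Myl9 was at 2047 in the first E100 SRF-VP16 array, with the next highest SRF-VP16 array of any line at 748. Myl9 was at 269 in the second E14wt vector array, with the next highest vector array at 60. Myh9 on 100915_at was at 794 in the second E99 SRFdM-VP16 array, with the nearest E99 control at 1750. Myh9 on 102108_f_at was at 2107 in the second E14wt SRFdM-VP16 array, with the next highest SRFdM-VP16 array at 1361. The last set and both all-line Myl9 sets pool the 4 lines.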

How the results depend on the processing

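In the -/- lines, SRF-VP16 against SRFdM-VP16, Myh9 on 100915_at passed under all 21 alternatives (log2 1.47 to 2.18). Myl9 passed under 18 (1.30 to 5.45), and was lost with the floor at the 60th percentile (1.30, adjusted p = 0.065), with only the arrays compared (adjusted p = 0.067) and in E81 alone (adjusted p = 0.11). Myh9 on 102108_f_at passed under 15 and was lost in E81 alone (adjusted p = 0.12), in E100 alone (adjusted p = 0.16) and without any one of E81 SRFdM-VP16 replicate 1, E100 SRFdM-VP16 replicate 1, E81 SRF-VP16 replicate 2 or E100 SRF-VP16 replicate 1. The number of the 5 probe sets called was 1 in E81 alone and 2 to 3 with single arrays left out. Dividing each array by its median moved the median of all probe sets to -0.16, and relative to it Myl9 was at 3.78 and Myh9 at 1.84 and 1.60. That setting split all calls into 165 higher and 119 lower, quantile normalization into 239 and 109, and the values as deposited into 239 and 33. With only the arrays compared, 112 probe sets passed, against 272.

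Over all lines 3 of 5 were called. The count was 1 with the floor at the 60th percentile, with no filter, and with only the arrays compared, 0 with vector as control, and 1 to 3 with single arrays left out. Without single arrays Myl9 was lost in 11 cases (SRFdM-VP16 replicate 1 of E14wt and E81 and both of E99 and E100, and SRF-VP16 replicate 1 of E14wt and E100, replicate 2 of E81 and both of E99). Myh9 on 102108_f_at was lost in those and without E81 SRF-VP16 replicate 1 or E100 SRF-VP16 replicate 2, 13 cases in all. For the -/- lines with SRF-VP16 against E14wt controls, 2 were called. The count was 1 with the floor at the 60th percentile, no filter, the inverse hyperbolic sine or no intensity trend, and 0 with only the arrays compared, E81 alone, or either control plasmid alone. Single arrays left out gave 0 to 3. Both calls were lost without replicate 1 of E14wt vector or of E14wt SRFdM-VP16, replicate 2 of E81 SRF-VP16 or replicate 1 of E100 SRF-VP16. Myl9 alone was lost without replicate 1 of E81 SRF-VP16 or of E81 SRFdM-VP16, and Myh9 without replicate 2 of E100 SRF-VP16. In the other 7 comparisons 0 were called under every alternative run. The cause of these changes was not tested.

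Same-numbered samples deviated together in the SRF-VP16 and SRFdM-VP16 groups of the -/- lines, with all 6 correlations above 0.1 (0.14 to 0.30), but not over all lines, where those within a line ran from -0.35 to 0.42 with 6 of 10 above 0.1. With a replicate block within each line, the -/- comparison kept 3 calls and the comparison over all lines had 1. The -/- lines with SRF-VP16 against E14wt controls had 0. Between lines, however, this block sets fitted levels of the arrays numbered 1 against each other, a different quantity. With a replicate block across all lines that comparison had 1. Both blocks used the replicate numbers as labelled, which did not run alike in the groups of E14wt and of E99. Division by the median moved the mean intensity of Myh9 with SRFdM-VP16 in the -/- lines to 1374 on 100915_at and 1261 on 102108_f_at, and of Tpm2 on 100605_at in E99 controls to 425. Leaving out the single E100 vector array gave no value for comparisons that need it. No called direction reversed. Of 42 results that did not pass, 905 alternatives were run, 5 of which passed, all for Myh9 on 102108_f_at in the -/- lines with SRF-VP16 against E14wt controls. Uncalled values changed sign in 96.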

Other observations

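Probe set 100604_at is annotated to Gm30639, a noncoding RNA gene that neighbours Tpm1 in the RefSeq table, and was not counted among the 5 probe sets. Whether it also reads Tpm1 RNA was not tested. Its intensity was 492, 627, 622 and 536 in the -/- SRF-VP16 arrays and 327, 322, 409 and 331 in the -/- SRFdM-VP16 arrays, which do not overlap, as was so for 4.64% of all probe sets. Its log2 change was 0.71 ± 0.25 (limma adjusted p = 0.2). Without SRF-VP16, Tpm4 and Tagln were lower in the -/- lines than in E14wt by values that did not pass, -2.26 ± 0.54 and -3.77 ± 0.90 on the log2 scale (limma adjusted p = 0.2 each), and the E14wt control arrays numbered 2 were the high ones for both.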
